A study of Mus musculus with 31 samples.

Results

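Proteasome subunits and regulators were followed at the RNA level in the hypothalamus of adult C57BL/6J mice whose mothers had eaten 1 of 2 diets. The members were the protein-coding genes whose mouse symbol begins with Psma, Psmb, Psmc, Psmd, Psme, Psmf or Psmg and a digit, with pseudogenes left out. This rule found 50 genes of 54532 in the count table. Of these, 15 encode constitutive subunits of the core particle (8 alpha and 7 beta), 3 the inducible beta subunits of the immunoproteasome, 1 the thymus-specific beta subunit, 17 the regulatory cap, 7 assembly chaperones, 5 activators and 1 an inhibitor. The remaining gene, Psmc3ip, matches by name only: its product is known as a cofactor of meiotic recombination. Because the rule goes by symbol, a cap subunit with another kind of symbol, such as Sem1, is not among the 17. A total of 49 members passed the filter on low counts, all but the thymic Psmb11.

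The dams ate either a control diet or a high-fat-high-sugar diet, which the labels call obesogenic, through pregnancy and lactation. Pups were weaned on postnatal day 21 to chow. At 3 months of age the offspring of both kinds of dam were put on the obesogenic diet, and the hypothalamus was taken 4 weeks later, at 4 months. The groups were 8 control female, 8 control male, 7 obesogenic female and 8 obesogenic male libraries, the first word being the diet of the dam. No animal or litter is named in the labels, the p-values below measure the spread between libraries, and pups of 1 litter could not be recognised.

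The proteasome is the protease that degrades proteins tagged with ubiquitin. Its barrel-shaped core particle stacks rings of alpha subunits, which form the gate, on rings of beta subunits, of which Psmb5, Psmb6 and Psmb7 carry the active sites. The regulatory cap binds either end: its lid removes ubiquitin, its base holds the substrate receptors, and the Psmc ATPases unfold the substrate and thread it in. Interferon and other immune signals lead cells to build Psmb8, Psmb9 and Psmb10 into the core in place of Psmb5, Psmb6 and Psmb7, which makes the immunoproteasome. In brain tissue the inducible subunits are known mainly from microglia and other immune or vascular cells. In RNA from whole tissue, fewer cells of a type and less RNA per cell cannot be told apart.

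The libraries held between 23118626 and 38547288 counted read pairs. Of the 31 libraries, 5 are in doubt and each comparison is given with and without them. Control female 7 carried the male pattern of sex-linked genes and control male 7 the female pattern, so each is named here by its label. Another 3 stood apart from the rest in the correlation of all genes: control female 5, control male 6 and obesogenic female 3. Control female 5 had 2884 CPM (read counts scaled to the size of the library) summed over 9 olfactory bulb markers, against 246.1 to 455 CPM in the other libraries, and 164 CPM over 12 hypothalamic markers, against at least 1262 CPM elsewhere. Control male 6 and obesogenic female 3 had reads in 18734 and 18513 genes, against 21311 to 22918 in the others. The titles of obesogenic female 1 and obesogenic male 1 hold 2 numbers, whose meaning the labels do not give, and these libraries are not among the 5. The defining hypothalamic markers Pmch, Hcrt, Avp and Oxt had medians of 882, 107, 159 and 84.0 CPM over all libraries.

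To compare genes, CPM was divided by the exon length of each gene, as given with the counts. This length may differ from that of the transcripts expressed, and the order of genes depends on it. The highest member was Psmc5, a cap ATPase, at 149.6 ± 29.1 CPM per kb (SD, n = 31 libraries). Among alpha subunits Psma6 was highest at 109 ± 24.4 CPM per kb, and the testis-type Psma8 was lowest at 0.172 ± 0.134 CPM per kb with 0 to 26 reads. The structural beta subunits ran from 29.5 ± 6.98 CPM per kb for Psmb3 to 79.2 ± 20.9 for Psmb4. The 3 catalytic subunits lay at 69.7 ± 14.3 CPM per kb for Psmb6, 65.9 ± 13.7 for Psmb5 and 43.6 ± 9.52 for Psmb7, so that Psmb6 and Psmb5 differed by less than their spread. Their inducible counterparts lay at 22.3 ± 5.38 CPM per kb for Psmb10, 2.16 ± 0.978 for Psmb8 and 0.580 ± 0.212 for Psmb9.

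Within the cap, Psmc2 was the lowest ATPase at 24.6 ± 3.41 CPM per kb. The base subunits Psmd2 and Psmd1, both large scaffold proteins, were at 54.6 ± 4.52 and 19.2 ± 2.88 CPM per kb. In the lid, the range ran from 9.83 ± 0.783 CPM per kb for Psmd11 to 49.1 ± 6.71 for Psmd7. The chaperones that help to assemble the cap base spanned 4.80 ± 0.583 CPM per kb for Psmd9 to 16.8 ± 5.10 for Psmd10, and those of the core 2.13 ± 0.828 for Psmg3 to 16.8 ± 3.07 for Psmg2. The activators, which open the gate without ATP, ranged from 4.76 ± 1.04 CPM per kb for Psme4 to 36.8 ± 2.77 for the nuclear activator Psme3. Psme1 and Psme2, the interferon-responsive pair known as PA28, were at 29.4 ± 7.19 and 18.9 ± 5.62 CPM per kb. The inhibitor Psmf1 was at 7.46 ± 0.658 CPM per kb. Psme2b, a single-exon near copy of Psme2, may share reads with it, and its values are uncertain for that reason.

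**Figure D1:**
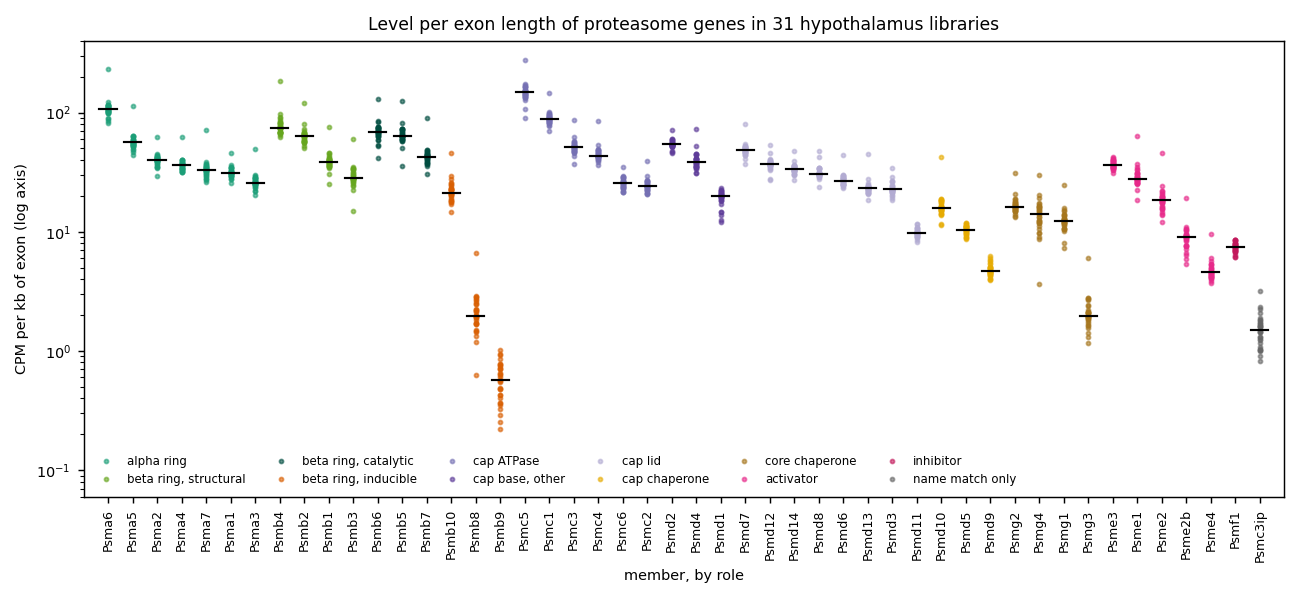
Level of 48 members in CPM per kb of exon on a log axis, 1 point per library (31 libraries) and a black line at the median, grouped by role; Psma8 and Psmb11, with libraries at 0 reads, are not drawn. Psmb8 and Psmb9 lie far below Psmb5 and Psmb6, while Psmb10 lies near the cap subunits, and the highest point of most members is control male 6.

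The spread across libraries also differed by member. The coefficient of variation of the CPM was lowest for Psme3 at 7.53%, Psmd11 at 7.96% and Psmd2 at 8.28%. Among members that passed the filter, leaving aside the near-silent Psma8, it was highest for Psmb8 at 45.3% and for the core chaperone Psmg3 at 38.8%. Control male 6 was the highest of all 31 libraries for 39 of the 49 members tested, and obesogenic female 3 the lowest for 19.

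Promoters of members were also searched for short motifs, as a description by role. RefSeq (build GRCm38.p6) gave 45 promoter entries for 42 members, each 250 bases before to 50 after the start, and the 250 bases were searched on both strands. TGANNNNGC, the core of the antioxidant response element, was found in 40% of member entries and in 35.2% of all 32851 entries. CCAAT, the motif of the factor NF-Y, was found in 33.3% of member entries and 33.8% of all. The members' shares were near those of all promoters. In the core particle, 5 of 11 genes with an entry held TGANNNNGC and 6 of 11 held CCAAT. In the cap these were 4 of 14 and 4 of 14, and among the chaperones 4 of 6 and 1 of 6. These count a gene with a match in any of its entries, so they cannot be set against the shares per entry. Windows of 3 core particle genes are given for each motif, chosen after the matches were seen. The motif is in capitals, 5′ to 3′ on the strand of the gene. Psmb5 (chr14:54618009-54618067, minus strand), Psmb6 (chr11:70525323-70525356, plus) and Psma4 (chr9:54950707-54950765, plus) hold TGANNNNGC. Psma1 (chr7:114276185-114276239, minus), Psma2 (chr13:14613163-14613217, plus) and Psma7 (chr2:180042631-180042685, minus) hold CCAAT.
Psmb5: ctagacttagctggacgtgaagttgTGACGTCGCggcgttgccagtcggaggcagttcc
Psmb6: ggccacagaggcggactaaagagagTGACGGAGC
Psma4: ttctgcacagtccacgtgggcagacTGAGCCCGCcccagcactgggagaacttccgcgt
Psma1: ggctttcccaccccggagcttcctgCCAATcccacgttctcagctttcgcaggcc
Psma2: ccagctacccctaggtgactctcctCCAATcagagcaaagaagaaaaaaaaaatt
Psma7: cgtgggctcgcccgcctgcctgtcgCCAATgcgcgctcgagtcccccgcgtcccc
The interferon response element, GAAA followed after 2 free bases by GAAA, was found in 6.67% of member entries and 2.98% of all. The 3 member entries were those of the core subunit Psmb3, the cap subunit Psmd4 and the chaperone Psmd9. It was found in 0 of 3 inducible subunit genes and in 0 of 5 activator genes. In these windows that says only that the letters are missing there.

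The first comparison asked how the diet of the dam relates to these genes in daughters. In females, 43 of 49 members had a lower estimate in offspring of obesogenic dams, against 52.5% of all genes tested, and the median log2 fold change of the members was -0.10, against -0.013 for all genes. None passed the threshold: edgeR's quasi-likelihood test with Benjamini-Hochberg adjustment over 18743 genes (threshold 0.05) called 0% of all genes and 0 members, and DESeq2 and limma voom also called 0 members. At an unadjusted p under 0.05, 2 members were lower and 0 higher, against 4.75% and 3.37% of all genes. limma voom, which weights libraries by their quality, had 14 members lower and 0 higher at that level, against 6.52% and 6.29% of all genes, and the fit of only these 2 groups 8 lower, against 4.37%. DESeq2, RLE scaling and a filter of 1 CPM in 7 libraries each had 2 lower at that level. The fit with 2 surrogate variables had 3 lower and that with an exon length trend removed 1. The fit without a filter had 5 lower, among them Psmb11, which is not one of the 49. Psmb11 had 0 reads in 18 libraries and its highest count, 129 reads, in control female 5, a library in doubt. Shares of all genes under these other settings are not reported here. The smallest adjusted p of a member was 0.577 with edgeR and 0.179 with limma voom.

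In the core particle, 14 of 15 members had a lower estimate in daughters of obesogenic dams and the median was -0.16. Psma1, an alpha subunit, had the smallest p. It ran from 90.01 through a median of 98.6 to 107 CPM in control females and from 81.6 through 86.6 to 92.3 CPM in obesogenic females. All 7 obesogenic libraries lay below the control mean, though the groups overlapped. The log2 fold change was -0.18 (SE 0.077, edgeR adjusted p = 0.577). Psmb7, the trypsin-like catalytic subunit, ran from 137 through 154 to 165 CPM in control females and from 104 through 129 to 144 CPM in obesogenic females, a log2 fold change of -0.24 (SE 0.12, adjusted p = 0.615 by edgeR). Again 7 of 7 obesogenic libraries lay below the control mean.

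The structural subunit Psmb3 ran from 64.2 through 68.0 to 76.5 CPM in control females and from 34.5 through 56.7 to 70.8 CPM in obesogenic females, with the lowest value in obesogenic female 3. Its log2 fold change was -0.28 (SE 0.14, adjusted p = 0.615 by edgeR). For the caspase-like subunit Psmb6, medians were 137 CPM in control and 117 CPM in obesogenic females and the log2 fold change was -0.22 (SE 0.13). For the chymotrypsin-like Psmb5, medians were 62.5 and 56.5 CPM and the log2 fold change was -0.19 (SE 0.13). Neither passed the threshold, with adjusted p values of 0.639 and 0.694 by edgeR.

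The 3 inducible subunits all had lower estimates in daughters of obesogenic dams, and none passed. Psmb10 had medians of 39.3 CPM in control and 32.4 CPM in obesogenic females (log2 fold change -0.22, SE 0.15). Psmb8 ran from 4.12 through 6.36 to 7.79 CPM in control females and from 1.71 through 5.36 to 7.32 CPM in obesogenic females (log2 fold change -0.34, SE 0.27). Psmb9, the least abundant, had medians of 2.09 and 2.22 CPM, and its estimate of -0.16 had an SE of 0.30. The intervals of these 3 reached from at lowest -0.88 to at highest 0.44 on the log2 scale, so differences in either direction were within the error.

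In the regulatory cap 14 of 17 members had a lower estimate in daughters and the median, -0.077, was nearer 0 than that of the core. The ATPases had a median of -0.097, the lid -0.067 and the base -0.013. Psmd1 of the base, Psmc6 among the ATPases and Psmd11 of the lid were the 3 with estimates above 0, at 0.086, 0.019 and 0.018. Among the chaperones 5 of 7 were lower. Psmg4, which helps to build the core, ran from 4.86 through 8.37 to 11.2 CPM in control females and from 2.03 through 6.18 to 7.83 CPM in obesogenic females, a log2 fold change of -0.49 (SE 0.22, edgeR adjusted p = 0.591). Psme1, Psme2, Psme3 and Psme4 had estimates of -0.0054, -0.086, -0.049 and -0.086, and Psmf1 of -0.061. All of these lay within 1 SE of 0.

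With the 5 libraries in doubt left out, 6 control and 6 obesogenic females remained. The median of the members was -0.076 (all genes -0.0047), with 41 of 49 lower against 51.1% of all genes. At an unadjusted p under 0.05 there were then 9 members lower and 0 higher, against 4.53% and 3.87% of all genes. These were Psmb7 (log2 fold change -0.20, SE 0.063), Psma1 (-0.20, SE 0.064), Psmb6 (-0.21, SE 0.080), Psma7 (-0.19, SE 0.074), Psmb4 (-0.20, SE 0.086), Psmb3 (-0.20, SE 0.087), Psmc5 (-0.15, SE 0.069), Psmc1 (-0.13, SE 0.058) and Psmb10 (-0.24, SE 0.11). Of the 9, 6 are constitutive core subunits, 2 are cap ATPases and 1 is the inducible Psmb10. Their edgeR adjusted p values were 0.543 to 0.560, and 0 members and 0% of all genes were called. Psmg4 was then at -0.31 (SE 0.18), Psmb5 at -0.073 (SE 0.082), Psmb8 at -0.18 (SE 0.20) and Psmb9 at -0.015 (SE 0.29). Control male 6 is not in this comparison but enters the shared estimate of the spread. Leaving out that library alone also gave 9 members lower at an unadjusted p under 0.05, against 7.25% of all genes, with 0.199 as their smallest edgeR adjusted p.

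**Figure D2:**
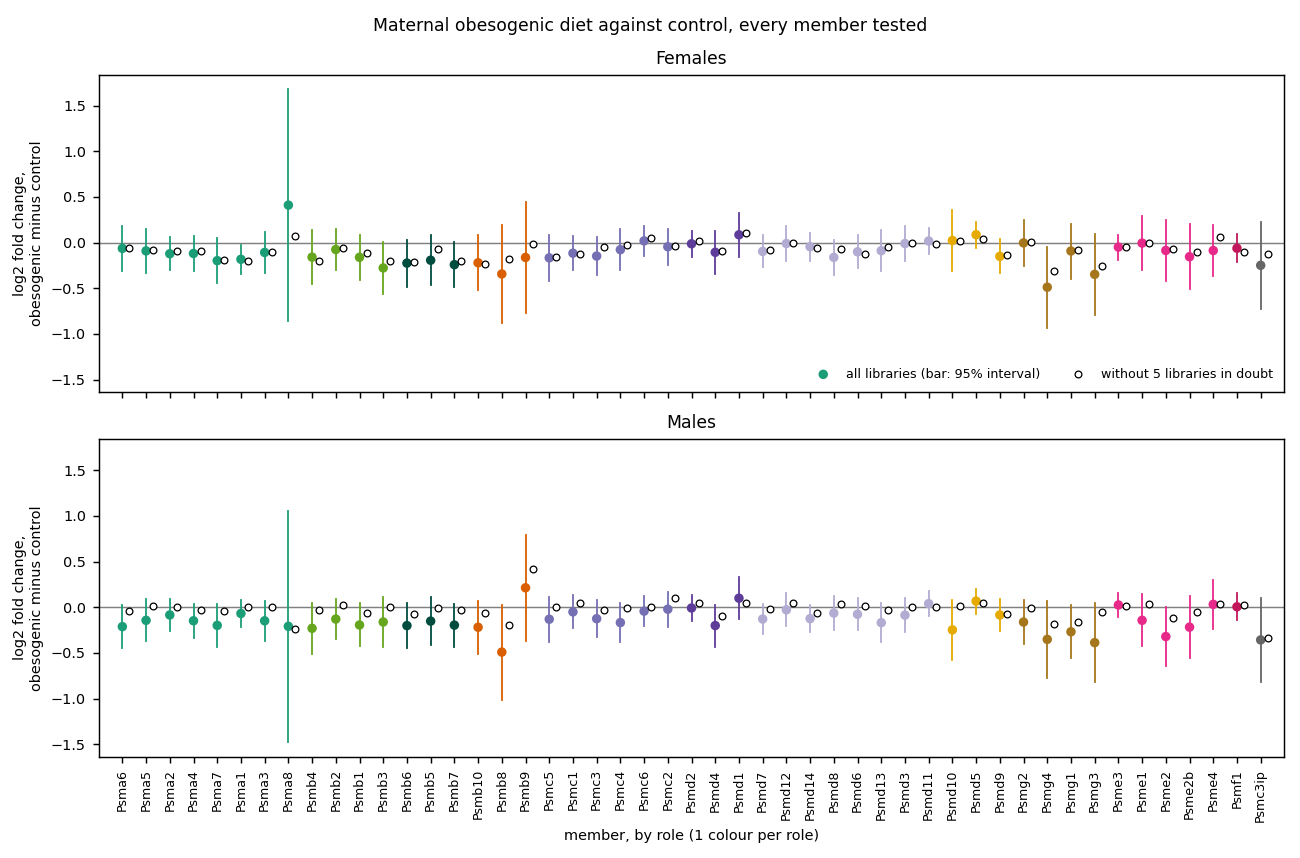
Log2 fold change (obesogenic minus control) of the 49 members tested, in females (top) and males (bottom), with 95% intervals for all libraries and open points for the fit without the 5 libraries in doubt. In females the open points of the core subunits other than Psma8 lie below 0, and in males they lie near 0.

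In males the same question gave 42 of 49 members with a lower estimate in sons of obesogenic dams, against 49.9% of all genes, and a median of -0.14 against 0.00038 for all genes. That median rested on 1 control library. Without control male 6, 25 of 49 members were lower and the median was -0.00031. In the fit without all 5 libraries in doubt, 26 of 49 were lower, against 48% of all genes, and the median was -0.0066 (all genes 0.0057). limma voom gave 13 of 49 lower and a median of 0.020, and edgeR with 2 surrogate variables 17 of 49 and 0.016. For these fits and that without control male 6 alone, the share of all genes lower is not reported here. With every library in the fit, edgeR called 0 members and 0% of all genes at the adjusted threshold, DESeq2 and limma voom called 0 members, and no member had an unadjusted p under 0.05, against 2.54% of all genes lower and 0.907% higher. The fit without the 5 also had 0 members under 0.05, against 1.48% lower and 1.22% higher. limma voom had 1 lower, Psmc3ip, and 0 higher, against 1.89% and 1.78%. The fit without only the 2 libraries against their sex label, which keeps control male 6, had 6 lower, against 3.8% of all genes. In both sexes the 2 diet groups overlapped for all 49 members, while they did not overlap for 0.117% of all genes in females and 0.016% in males.

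Psme2, a PA28 subunit, had the smallest p in males. It ran from 28.6 through 32.4 to 80.6 CPM in control males, the highest being control male 6, and from 24.2 through 32.8 to 34.96 CPM in obesogenic males. The medians were nearly equal while the log2 fold change was -0.32 (SE 0.16, edgeR adjusted p = 0.940). Psmb8 showed the same shape, from 4.03 through 5.49 to 18.04 CPM in control males and from 3.66 through 4.99 to 7.09 CPM in obesogenic males, with a log2 fold change of -0.49 (SE 0.26, adjusted p = 0.940). Both estimates were nearer 0 in the fit without the 5 libraries in doubt, at -0.12 (SE 0.096) for Psme2 and -0.20 (SE 0.18) for Psmb8.

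The core chaperone Psmg1 ran from 14.1 through 18.1 to 33.05 CPM in control males and from 13.5 through 16.5 to 18.2 CPM in obesogenic males (log2 fold change -0.27, SE 0.14). Psmg3 ran from 4.08 through 5.65 to 17.5 CPM and from 3.40 through 5.74 to 6.88 CPM (log2 fold change -0.39, SE 0.21). In both, the highest control value was control male 6. Leaving out the 5 libraries in doubt gave estimates of -0.17 (SE 0.095) for Psmg1 and -0.054 (SE 0.16) for Psmg3.

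The catalytic subunits of males followed the same course. Psmb7 ran from 132 through 150 to 309 CPM in control males and from 123 through 147 to 167 CPM in obesogenic males, a log2 fold change of -0.20 (SE 0.12) that became -0.033 (SE 0.059) without the 5 libraries. Psmb5 and Psmb6 went from -0.15 and -0.20 to -0.0066 and -0.076. Psmb10 went from -0.22 (SE 0.14) to -0.067 (SE 0.10). Psmb9 was the one inducible subunit with a positive estimate, 0.21 (SE 0.29) with all libraries and 0.42 (SE 0.27) without the 5, with medians of 1.93 CPM in control and 2.15 CPM in obesogenic males. Among the activators Psme1 was at -0.14 (SE 0.14), Psme3 at 0.024 (SE 0.065) and Psme4 at 0.031 (SE 0.13), and the inhibitor Psmf1 was at 0.0043 (SE 0.073).

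By role in males, all 15 core members were lower with a median of -0.16, and 15 of 17 cap members with a median of -0.077. The core chaperones had a median of -0.31. In the fit without the 5 libraries in doubt these medians were -0.027, 0.0030 and -0.11. The diet comparisons in the 2 sexes use separate libraries but 1 estimate of the spread. With all libraries 39 members were lower in both, and without the 5 libraries 24. Of all genes, 52.5% were lower in females and 49.9% in males with all libraries, and 51.1% and 48% without the 5. The share of all genes lower in both sexes is not given, so the 39 and 24 have no background.

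**Figure D3:**
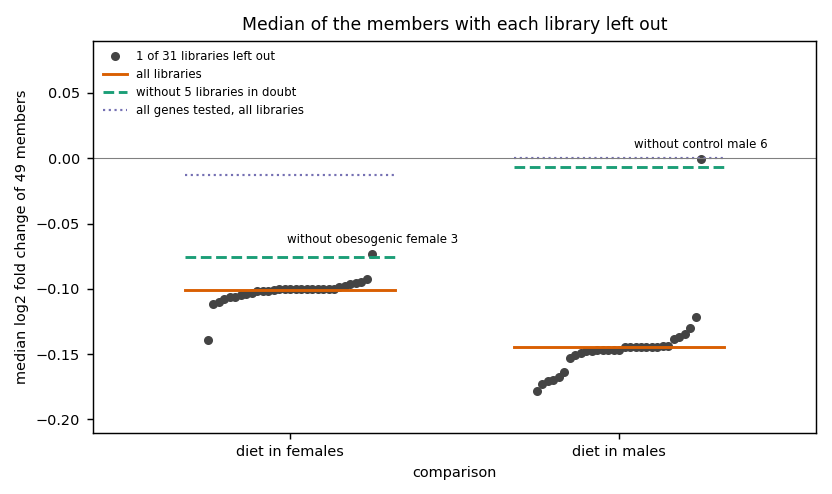
Median log2 fold change of the 49 members in each diet comparison with each of the 31 libraries left out in turn (points), with lines for all libraries, for the fit without the 5 libraries in doubt and for all genes tested. In females the median stays between -0.14 and -0.073, and in males it moves to about 0 when control male 6 is left out.

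Exon length ran alongside these differences. Over the 47 members other than Psma8, Psmb11 and Psmc3ip, the Spearman correlation between exon length and log2 fold change was 0.24 in females and 0.63 in males with all libraries, and 0.28 and 0.35 without the 5, shorter genes having the lower values. These points share libraries and give a description only. With a smooth trend in exon length removed in each library, the median of the members was -0.055 in females and -0.12 in males. The part of exon length in the differences was not tested further.

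Whether the diet difference itself differed between the sexes was tested by the interaction, coded as the difference in females minus that in males. With edgeR 0 members and 0% of all genes were called, and DESeq2 and limma voom called 0 members. At an unadjusted p under 0.05 there were 0 members in either direction, against 2.33% of all genes lower and 1.3% higher. With limma voom 10 members were lower and 0 higher at that level, against 4.83% and 3.96% of all genes. In that fit 43 of 49 were below 0, for which the share of all genes is not reported here. With edgeR the median of the members was 0.020, with 22 of 49 below 0 against 49% of all genes. Psmd10, a chaperone of the cap base, had the smallest p, at 0.27 (SE 0.23, adjusted p = 1 by edgeR), and Psma1 the next, at -0.11 (SE 0.11). Without the 5 libraries in doubt, 38 of 49 members were below 0, against 51.8% of all genes, and the median was -0.054. Psmd10 was then at 0.0054 and Psma1 at -0.21 (SE 0.087). Psma1 and the ATPase Psmc1 (-0.18, SE 0.080) were the 2 members under 0.05 before adjustment, both lower, against 1.96% of all genes lower and 1.52% higher, and neither was called (edgeR adjusted p = 1, 0% of all genes called).

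Daughters were also compared with sons within each maternal diet. In offspring of control dams 41 of 49 members had a lower estimate in females, against 51.1% of all genes, with a median of -0.11. edgeR called 0 members and 0% of genes, with 1 member lower and 0 higher at an unadjusted p under 0.05 against 1.07% and 3.32% of all genes. That member was Psma6, which ran from 106 through 129 to 141 CPM in control females and from 122 through 139 to 285 CPM in control males (log2 fold change -0.28, SE 0.12, edgeR adjusted p = 0.995). The lid subunit Psmd7 was next at -0.17 (SE 0.083), with medians of 112 and 117 CPM. Control male 6 was the highest library for both, and without the 5 libraries in doubt the estimates were -0.071 (SE 0.067) and -0.038 (SE 0.057). The median of the members was then 0.0036, with 22 of 49 lower against 49.3% of all genes. In that fit edgeR called 0 members and 0.0588% of all genes, and 0 members were under 0.05 before adjustment, against 1.03% lower and 1.4% higher. limma voom had 0 lower and 4 higher in females (Psma1, Psmb10, Psmc5 and Psmc1), against 2.33% and 2.65% of all genes. The fit without only the 2 libraries against their sex label had 5 lower (Psma6, Psmd7, Psme1, Psme2 and Psmg1), against 1.45%. This comparison shares its control libraries with both diet comparisons. With all libraries, which include the 2 against their sex label, the sex-linked genes were not called either. The smallest edgeR adjusted p of any gene was 0.356 in that fit and 3.8e-20 without the 5 libraries. The 0% of the fit with all libraries is therefore a weak background.

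In offspring of obesogenic dams 43 of 49 members had a lower estimate in females, against 51.3% of all genes, with a median of -0.083. In the fit without the 5 libraries it was 38 of 49, against 51.6% of all genes, with a median of -0.046. edgeR called 0 members and 0% of genes, and at an unadjusted p under 0.05 there were 0 members, against 1.59% of all genes lower and 2.04% higher. Here too the sex-linked genes were not called with all libraries. The 2 libraries against their sex label are not in this comparison but enter the shared estimate of the spread. The smallest edgeR adjusted p of any gene was 0.0702 with all libraries and 2.99e-20 without the 5. limma voom had 11 members lower and 0 higher, against 4.5% and 3.53% of all genes, and edgeR with 2 surrogate variables 5 lower (Psmb7, Psma7, Psmd7, Psmb3 and Psma2), against 4.84%. Psmb3 had the smallest p, with medians of 56.7 CPM in females and 65.2 CPM in males (log2 fold change -0.28, SE 0.14, adjusted p = 1 by edgeR). Psma2, an alpha subunit, was next, with medians of 141 and 149 CPM and a log2 fold change of -0.15 (SE 0.088). Once the 5 libraries in doubt, obesogenic female 3 among them, were left out, 3 members were lower and 0 higher at an unadjusted p under 0.05, against 2.86% and 2.62% of all genes. They were Psmb3 (-0.19, SE 0.082), Psmb7 (-0.13, SE 0.059) and Psma7 (-0.15, SE 0.069). Their edgeR adjusted p values were 0.861 to 0.876, and 0 members and 0.0749% of all genes were called. Daughters and sons overlapped for all 49 members, while they did not overlap for 0.0107% of all genes in offspring of control dams and 0.101% in those of obesogenic dams.

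The balance of inducible and constitutive catalytic subunits was then read as a share within each library, which needs no scaling between libraries. For each pair the inducible gene's reads per kb were divided by the sum of both. Over 31 libraries the median share was 33.4% for Psmb10 against Psmb7 (29.04% to 40.1%), 3.14% for Psmb8 against Psmb5 (1.77% to 4.998%) and 0.762% for Psmb9 against Psmb6 (0.323% to 1.43%). Every library thus had a Psmb10 share of 29.04% or more, and Psmb8 and Psmb9 shares of 4.998% and 1.43% or less. The sizes of the shares depend on the exon lengths used. These were 1705 bases for Psmb10 and 3421 for Psmb7, 2736 and 899 for Psmb8 and Psmb5, and 3659 and 1872 for Psmb9 and Psmb6. Before division by length, the median reads were 1121 and 4490, 167 and 1831, and 68 and 3971 in the same order. Comparisons of a pair between groups do not depend on these lengths. The lowest Psmb8 share was that of obesogenic female 3 and the highest that of control male 6.

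By group, the median Psmb10 share was 33.7% in control females, 35.2% in obesogenic females, 32.9% in control males and 33.4% in obesogenic males. For Psmb8 the medians were 3.20%, 3.07%, 3.39% and 2.81% in the same order. For Psmb9 they were 0.749%, 0.972%, 0.673% and 0.931%. Each pair was compared in 4 contrasts, 12 two-sided exact permutation tests of the log2 ratio in all, and none passed after adjustment. The smallest p belonged to Psmb9 against Psmb6 in males: the log2 ratio was 0.42 higher in sons of obesogenic dams, 7 of 8 lay above the control mean, and the exact permutation p was 0.0797 (adjusted p = 0.620). Without the 5 libraries in doubt the difference was 0.52 (exact permutation p = 0.0573, adjusted p = 0.687), and without the 2 against their sex label alone 0.51 (exact permutation p = 0.0407, adjusted p = 0.489). These shares rest on 23 to 131 reads of Psmb9 per library.

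**Figure D4:**
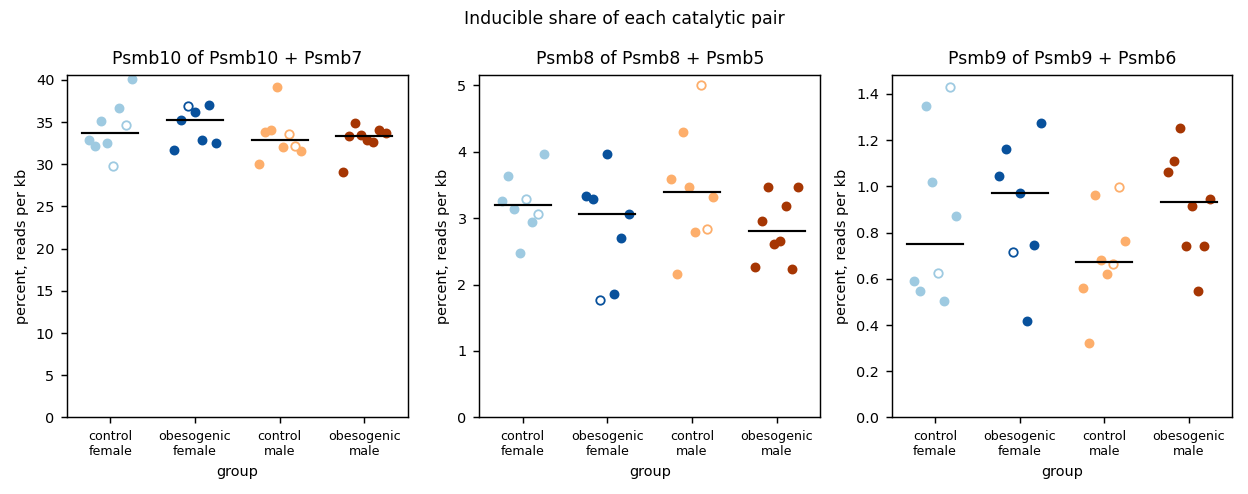
Inducible share of each catalytic pair in percent of reads per kb, 1 point per library in each of the 4 groups, open for the 5 libraries in doubt, with a black line at the group median and axes from 0. The groups overlap in all 3 pairs, and the scales differ: about 30% to 40% for Psmb10, 2% to 5% for Psmb8 and under 1.5% for Psmb9.

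How far the members vary together was described by correlating their log2 CPM deviations from the mean of their group, with no test. In the constitutive core without Psma8, the median correlation of 91 pairs of genes was 0.83 over 31 libraries and 0.58 over the 26 not in doubt, and all 91 pairs were above 0 in both. Core against cap had a median of 0.72 over 31 libraries and 0.36 over 26. Within the cap it was 0.61 and 0.33, and core against inducible subunits 0.72 and 0.50. All points share library depth and RNA quality.

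Against the mean of the other core subunits, the inducible Psmb10 had a correlation of 0.91 over 31 libraries and 0.90 over 26, the highest of any member in the smaller set. Psmb6, Psmb1, Psmc5, Psmb2 and Psme2 followed at 0.88 to 0.85 over 26 libraries. Some members went the other way, of which 3 are given here. Psmd1 had -0.44 and -0.49, Psmd11 -0.55 and -0.17, Psme4 -0.29 and -0.21 over 31 and 26 libraries. These 3 have exon lengths of 7265, 6383 and 8382 bases, the longest among them being that of Psme4, while Psmb10 has 1705. Any part of exon length in this was not tested. By pairs of genes, core against activators was above 0 in 44 of 70 pairs over 31 libraries and 54 of 70 over 26. Core against chaperones was above 0 in 85 of 98 pairs over 31 libraries and 81 of 98 over 26. In control male 6 the mean log2 deviation was 0.94 for the core, 0.55 for the cap, 0.87 for the chaperones and 0.67 for the activators. In obesogenic female 3 it was -0.41 for the core and -0.26 for the cap.

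**Figure D5:**
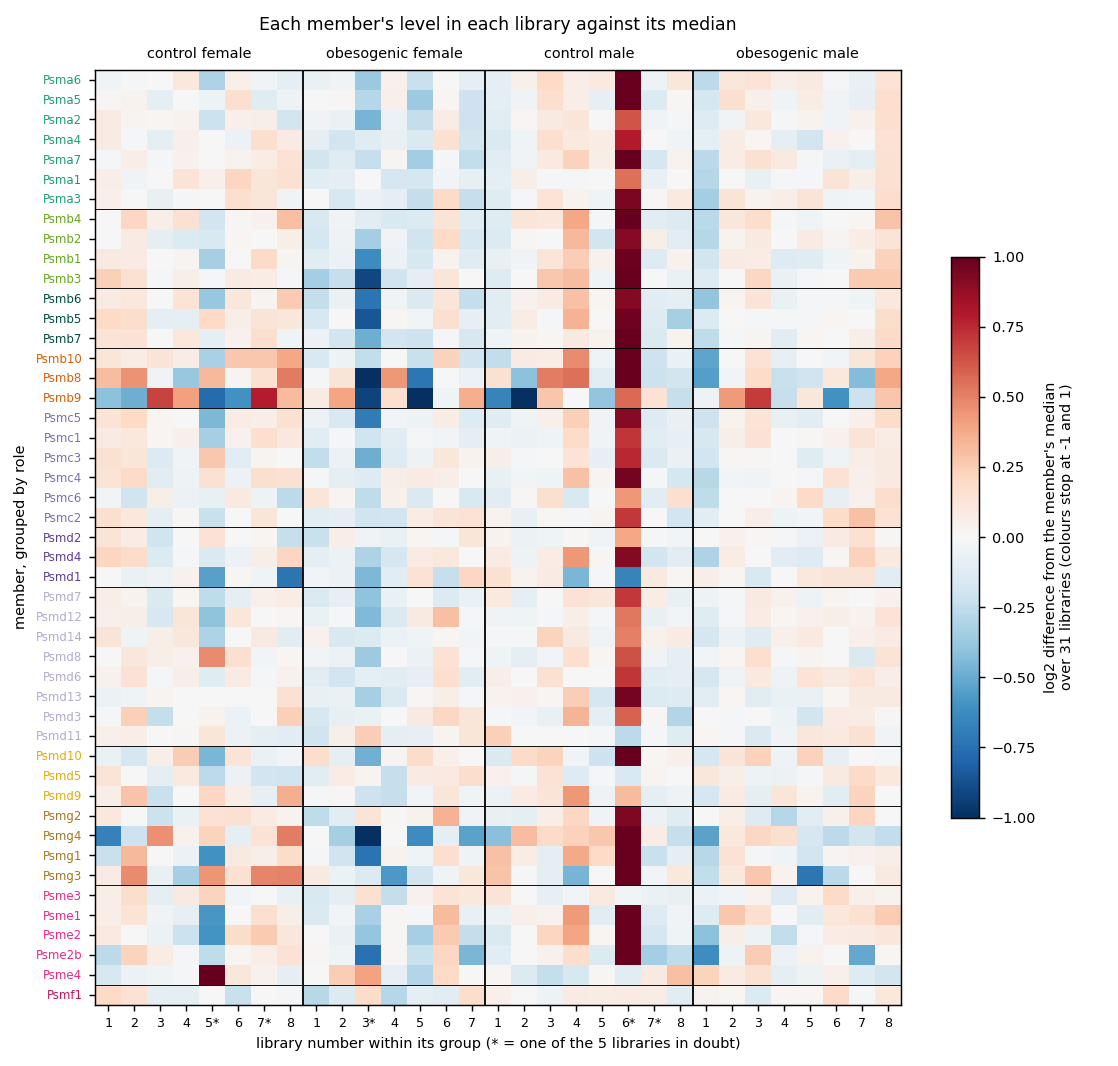
Log2 difference of each of 47 members (rows, by role) from its median over 31 libraries, in each library (columns, by group), with an asterisk on the 5 libraries in doubt; colours stop at -1 and 1. Control male 6 is high across nearly all rows and obesogenic female 3 is low in many, while Psmd1, Psmd11 and Psme4 do not follow them.

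Genes that work with the proteasome were read from a list of 27 other genes. They belong to ubiquitin supply, shuttling, deubiquitination, and proteasome assembly and transcription. The list also holds Sem1, which is itself a cap subunit but has a symbol outside the naming rule. In females 11 had a lower and 16 a higher estimate, with a median of 0.028, and in males 12 and 15, with a median of 0.025. Of all genes, 52.5% were lower in females and 49.9% in males. edgeR called 0 of the 27 in either sex (0% of all genes), with 1 lower and 1 higher in females, against 4.75% and 3.37% of all genes, and 1 lower and 0 higher in males, against 2.54% and 0.907%, at an unadjusted p under 0.05. The 3 of smallest p in females were Zfand5, a proteasome-binding activator (104 ± 15.05 CPM in obesogenic against 137 ± 39 in control females, log2 fold change -0.39, SE 0.12, adjusted p = 0.523), Ddi2, the protease that activates Nfe2l1 (0.25, SE 0.11), and Akirin2, which carries proteasomes into the nucleus (-0.22, SE 0.11). In males the core maturation factor Pomp (-0.29, SE 0.15) and the shuttle factor Rad23b (0.13, SE 0.077) were among those of smallest p. Leaving out the 5 libraries in doubt gave 3 of the list lower and 0 higher in females at an unadjusted p under 0.05, against 4.53% and 3.87% of all genes. They were Pomp (-0.23, SE 0.082), Zfand5 (-0.22, SE 0.085) and Sem1, a small subunit of the lid (-0.22, SE 0.10). The list medians were then 0.051 in females and 0.069 in males.

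The 12 genes of MHC class I presentation and interferon response, some of which load the peptides that immunoproteasomes make or drive their transcription, had a median of -0.13 in females and -0.10 in males. In each sex 9 of 12 were lower, against 52.5% of all genes in females and 49.9% in males. edgeR called 0 of the 12 in either sex (0% of all genes). At an unadjusted p under 0.05 there were 0 in females, against 4.75% of all genes lower and 3.37% higher. In males 1 was lower and 0 higher, against 2.54% and 0.907%. Tap2 (0.18, SE 0.11) and B2m (-0.19, SE 0.11) were among those of smallest p in females. In males Isg15 was at 1.53 ± 0.209 CPM in obesogenic and 3.00 ± 2.74 CPM in control libraries (log2 fold change -0.96, SE 0.43, edgeR adjusted p = 0.940), followed by Tapbp (-0.19, SE 0.11) and B2m (-0.14, SE 0.11). In the fit without the 5 libraries in doubt Isg15 was at -0.48 (SE 0.25) and the list's medians were -0.012 and -0.018. In that fit 7 of 12 were lower in females and 8 of 12 in males, against 51.1% and 48% of all genes. The summed level of 10 microglial markers ran from 414 to 549 CPM in control females, 386 to 542 in obesogenic females, 406 to 639 in control males and 387 to 547 in obesogenic males, the highest being control male 6. Its part in the levels of the inducible subunits was not tested.

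Psmb11, the beta subunit of cortical thymic epithelium, had 129 reads (3.49 CPM) in control female 5. It had 0 reads in 18 libraries and at most 9 in the other 12.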

How the data were processed

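Whole-hypothalamus RNA of 31 libraries was sequenced with Illumina TruSeq libraries. Per the file headers the authors deposited raw counts per Ensembl gene (GRCm38, release 94) from featureCounts 1.6.2, with properly paired fragments, mapping quality of at least 10 and the reverse strand. The submitters' processing notes also name FastQC, TopHat2 2.0.13, Subread and edgeR. Symbols were matched for 54409 of 54532 genes, and 4 pseudogenes of the family were left out. The members and lists were chosen with earlier results of these data known.

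Counts were tested here with edgeR 4.0.16 (filterByExpr, TMM, robust quasi-likelihood fit, 4 group means) on 18743 genes, with Benjamini-Hochberg adjustment and a threshold of 0.05. Intervals are 95%. Tested on simulated counts of 18743 genes, the fit recovered 8.16% of genes changed 1.2-fold and 38.8% of genes changed 1.5-fold in the females' comparison, and 6% and 56% in the males'. CPM of the members and of the listed partner and MHC genes uses TMM factors, and CPM per kb compares genes. CPM of the cell type and tissue markers uses library totals without these factors. Log2 CPM of single libraries had 0.1 CPM added. Ratios of 2 members had 1 count added and were tested by exact permutation. Genes with values were named by rule: the catalytic and inducible subunits, the main activators and the inhibitor, the 4 smallest p per diet comparison and 2 per other comparison, the extremes of level by role, and 3 of smallest p per partner list, of which some are not reported here. The alternatives were other scalings (RLE), DESeq2 1.42.0, limma voom 3.58.1, other filters, 2 surrogate variables (sva 3.50.0), only the 2 groups compared, an exon length trend removed and libraries left out. The smallest chi-square per degree of freedom between 2 libraries of a group was 11.6, so none was treated as a repeat. Library numbers follow accession order and only name libraries. R was 4.3.3 and scipy 1.17.1. 0 columns were left unused.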

Additional observations from a re-analysis of the deposited data

Results flagged for a closer look

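For 6 sets of members, 20 named members, Psmb11 and 3 ratios, each of the 4 groups was searched for a highest or lowest library set apart from the rest by Dixon's test. Of 120 groups 35 were flagged. The sets and members overlap and vary together, and some members were named by their p in these same libraries. The 35 can therefore not be set against a chance rate.

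Control male 6 accounted for 21 of them. Its mean log2 deviation was 0.94 for the core particle, against -0.12 to 0.17 in the other control males, 0.55 for the cap, 0.87 for the chaperones, 0.67 for the activators and 0.76 for 47 members together. Its CPM was also the highest for Psma1 (135), Psma2 (228), Psma6 (285), Psmb3 (139), Psmb5 (113), Psmb6 (244.3), Psmb7 (309), Psmb8 (18.04), Psmb10 (77.9), Psmd7 (180), Psmd10 (62.2), Psme1 (139), Psme2 (80.6), Psmg1 (33.05), Psmg3 (17.5) and Psmg4 (16.6). The nearest other control male had 156 CPM of Psmb7 and 7.96 CPM of Psmb8. This library had reads in 18734 genes and a sum of 9824 CPM over oligodendrocyte markers, against 5326 to 7376 CPM in the control males not in doubt. Its sum over the 12 hypothalamic markers was 3675 CPM, the highest of the 31 libraries, against 1383 to 2439 CPM in the same control males. The part of these in its proteasome levels was not tested.

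Obesogenic female 3, with reads in 18513 genes, was flagged low for the chaperones (mean log2 deviation -0.48), Psmb5 (31.7 CPM against 51.4 to 64.4) and Psmd7 (83.6 CPM). Control female 5, which carries the olfactory bulb markers, was flagged high for Psme4 (80.3 CPM against 34.3 to 41.4) and Psmb11 (3.49 CPM) and low for Psmb6 (98.996 CPM) and Psme1 (41.1 CPM).

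Outside the 5 libraries in doubt, obesogenic male 1, one of the 2 libraries with 2 numbers in the title, was low for Psmb10 (25.02 CPM), Psmb6 (97.8 CPM) and the log2 ratio of Psmb10 to Psmb7 (-1.29), obesogenic male 8 high for Psmb5 (65.0 CPM), and control male 4 high for that ratio (-0.63). Psmb11 was flagged in control male 1 (0.24 CPM) and obesogenic male 5 (0.25 CPM), at 6 and 9 reads.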

How the results depend on the processing

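No member was called in any of the 5 comparisons under any alternative run, and the smallest adjusted p of a named member among them was 0.179. No paired analysis was possible because the labels give no replicate numbers that groups share. The interaction could not be fitted with only the 2 groups compared.

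The median of the members kept its sign in females under every alternative, moving to -0.030 with 2 surrogate variables. In males it was 0.020 with limma voom, 0.016 with 2 surrogate variables and -0.0066 without the 5 libraries in doubt. For the interaction it was -0.12 with limma voom, -0.029 with 2 surrogate variables, -0.054 without the 5 libraries and -0.0024 without the 2 libraries with 2 numbers in the title. For sex in control offspring it was 0.050 with limma voom, -0.024 with 2 surrogate variables and 0.0036 without the 5. Leaving out each library in turn gave ranges of -0.14 to -0.073 in females, -0.18 to -0.00031 in males, -0.094 to 0.049 for the interaction, -0.14 to 0.022 for sex in control and -0.12 to -0.040 for sex in obesogenic offspring. Without control male 6 the medians were -0.00031 in males, -0.094 for the interaction and 0.022 for sex in control offspring. The cause was not tested.

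Of 36 ratio results, 3 changed sign, all without the 5 libraries: Psmb10/Psmb7 for diet in females (-0.039), and Psmb8/Psmb5 for sex in control (0.0020) and in obesogenic offspring (0.072).

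Single members also changed sign, some from estimates near 0 and others from as far as -0.22 (Psmb10 in males). In females with 2 surrogate variables Psme1 was at 0.083, Psme2 at 0.015 and Psme4 at 0.077, and with limma voom Psmb9 at 0.034 and Psme4 at 0.071. Psme4 was at 0.057 without the 5 libraries. With the length trend removed Psme1 was at 0.067 and Psme2 at 0.00087. Psme1 was at 0.023 without the 2 libraries against the sex label and 0.013 without the 2 with 2 numbers in the title. In males with limma voom Psmb5 was at 0.058, Psmb7 at 0.0021, Psmb10 at 0.035 and Psme1 at 0.12, and with 2 surrogate variables at 0.064, 0.0062, 0.033 and 0.11. Psme1 was at 0.032 without the 5 libraries. Psme4 was at -0.014 with 2 surrogate variables, -0.0020 without the 2 libraries with 2 numbers in the title and -0.058 with the length trend removed. Psmf1 was at -0.0036 with a filter of 1 CPM in 7 libraries and -0.073 with the length trend removed. With 1 library left out, 18 of 1023 estimates changed sign. Leaving out each library in turn gave ranges in females of -0.070 to 0.041 for Psme1 and -0.15 to 0.11 for Psme4. In males the ranges were -0.21 to 0.0095 for Psmb5, -0.19 to 0.055 for Psme1, -0.0023 to 0.044 for Psme3, -0.0052 to 0.081 for Psme4 and -0.021 to 0.027 for Psmf1. At 23 to 131 reads, Psmb9 is the inducible subunit that depth limits most.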
